A study of Mus musculus with 4 samples.

Results

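Regulatory T cells were taken from mouse spleen libraries by rule, as T cell barcodes that held at least 1 unique molecular identifier (UMI, 1 counted RNA molecule) of Foxp3. A barcode was kept with at least 500 UMIs, at least 250 detected genes and at most 10% mitochondrial UMIs. It entered when at least 2 of the 6 T cell genes Cd3d, Cd3e, Cd3g, Trbc2, Themis and Bcl11b and fewer than 2 of the 4 B cell genes Cd79a, Ebf1, Pax5 and Ms4a1 were detected, with Cd8a and Cd8b1 at 0 UMIs and the neutrophil granule genes Camp, Ngp and Ltf under 0.5% of its UMIs. The members were thus chosen by measured UMIs of Foxp3 and of the other genes of the rule, and values of those genes are given as a description. Of 53945 kept barcodes, out of 64410 deposited, 621 met the rule. They are called Foxp3-positive T cells here.

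The libraries came from 4 female C57BL/6J mice, 1 library per mouse. The 2 mice called D3TA were heterozygous for a Ccnd3 knock-in allele, present in all tissues from the germ line and made with CRISPR/Cas9, that exchanges threonine 283 of the G1 cyclin D3 for alanine, and the 2 called WT were wild type. The mice were 12 and 16 months old, when D3TA animals have a myeloproliferative neoplasm, but the labels do not tie an age to a library. Spleens were dissociated mechanically, red cells were lysed and no T cells were sorted.

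WT replicate 1 gave 95 Foxp3-positive T cells, WT replicate 2 gave 140, D3TA replicate 1 gave 231 and D3TA replicate 2 gave 155. Their depth was even, with a median of 6037 to 7092 UMIs per cell, whereas the median over every kept cell was 1394 UMIs for WT replicate 1 and 7698 to 8111 for the other 3 libraries. Summed over cells, 707280, 1116860, 1756578 and 1036431 UMIs were available in the same order. Of the 621 cells, 7 were marked as doublets by Scrublet, and 10 carried a barcode sequence that was also kept in another library. A single Foxp3 UMI was the whole Foxp3 signal in 40, 48, 99 and 67 cells of the 4 libraries.

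Foxp3 is the forkhead transcription factor that fixes the identity of regulatory T cells, which restrain other T cells and keep tolerance to self. Mice and humans without it develop fatal autoimmunity. These cells read IL-2 made by other T cells through the high-affinity receptor chain Il2ra (CD25), depend on STAT5 downstream of it, and hold the inhibitory receptor Ctla4 at high level. In the spleen they range from resting cells that recirculate to effector cells that have seen antigen.

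The label was checked against its markers. A Cd4 UMI was found in 63.2%, 70%, 52.8% and 71.6% of Foxp3-positive T cells of WT replicate 1, WT replicate 2, D3TA replicate 1 and D3TA replicate 2, and in 0.605% to 1.28% of B cells of the same libraries (3 or more of the B cell genes, no T cell gene, median 1937 to 13650 UMIs). Ctla4 was detected in 68.4%, 81.4%, 77.9% and 76.1% of them, against 1.32%, 2.63%, 41.1% and 4.21% of B cells, so Ctla4 set the members apart from B cells least in D3TA replicate 1, and the source of that signal was not tested. Ikzf2, which encodes Helios, a zinc finger factor of thymus-derived regulatory T cells, was detected in 90.5% to 97.4% of them and in 2.54% to 4.58% of B cells. Among T cells with no Cd8 and no Foxp3 UMI, Cd4 was found in 27.8%, 65.8%, 61.5% and 54.9%, at a median of 1511 UMIs in WT replicate 1. Cd4 was thus close in WT replicate 2 and less frequent in the members of D3TA replicate 1. Without the cells described next it was found in 42.9% of those members. Ikzf2 and Ctla4 were not exclusive to the members among T cells either. In Foxp3-negative Cd4 T cells Ikzf2 was detected in 48.3%, 66.9%, 79.6% and 50%, and Ctla4 in 25.2%, 40.6%, 56.5% and 38.9%. The 11 regulatory T cell markers that the rule did not use were all detected in every library. Their summed level was 6316, 7286, 5906 and 8500 UMIs per 1000000 (CPM), against 1765, 2401, 1763 and 2424 CPM in Foxp3-negative Cd4 T cells, so that the classes did not overlap. Ikzf2 alone gave 3793, 4451 and 5453 CPM of the sum in members of WT replicate 1, WT replicate 2 and D3TA replicate 2. The cells described next differed in several of these markers.

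In D3TA replicate 1, 42 of the 231 Foxp3-positive T cells stood apart. They were found after the values were seen, as cells with at least 2 of the 10 genes Cacna2d3, Cdh13, Npy, Krt17, Lgals7, Hs3st5, Phex, Slit2, Antxr1 and Colec12, and 1 of the 390 Foxp3-positive T cells of the other libraries met the same mark. None of the 42 held a UMI of Trbc1, one of the alternative constant segments of the T cell receptor beta chain, against 104 of the other 189 cells of that library, and all 42 held Trbc2. The variable segment Trbv13-1 was read in 19 of the 42 and in 1 of the 189. Il2ra, Itgae and Icos were each read in 1 of the 42, against 109, 137 and 128 of the 189, while Cd4 was read in 41 against 81. Their Ikzf2 level was 1097 against 3683 CPM, and their Foxp3 level 184 against 362 CPM. The transcription factor gene Tox was at 6109 against 1666 CPM and Tshz2 at 2927 against 144 CPM. Their median depth was 10472.5 UMIs against 5958. The same mark was met by 47 of the 1316 Foxp3-negative Cd4 T cells of that library and by none of the 302, 483 and 576 in the other libraries. The 42 cells thus differed from the rest of the library in Il2ra, Itgae and Icos as well as in the receptor segments. They are given no cell type name, and values of D3TA replicate 1 include them unless a second value without them is given.

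**Figure D1:**
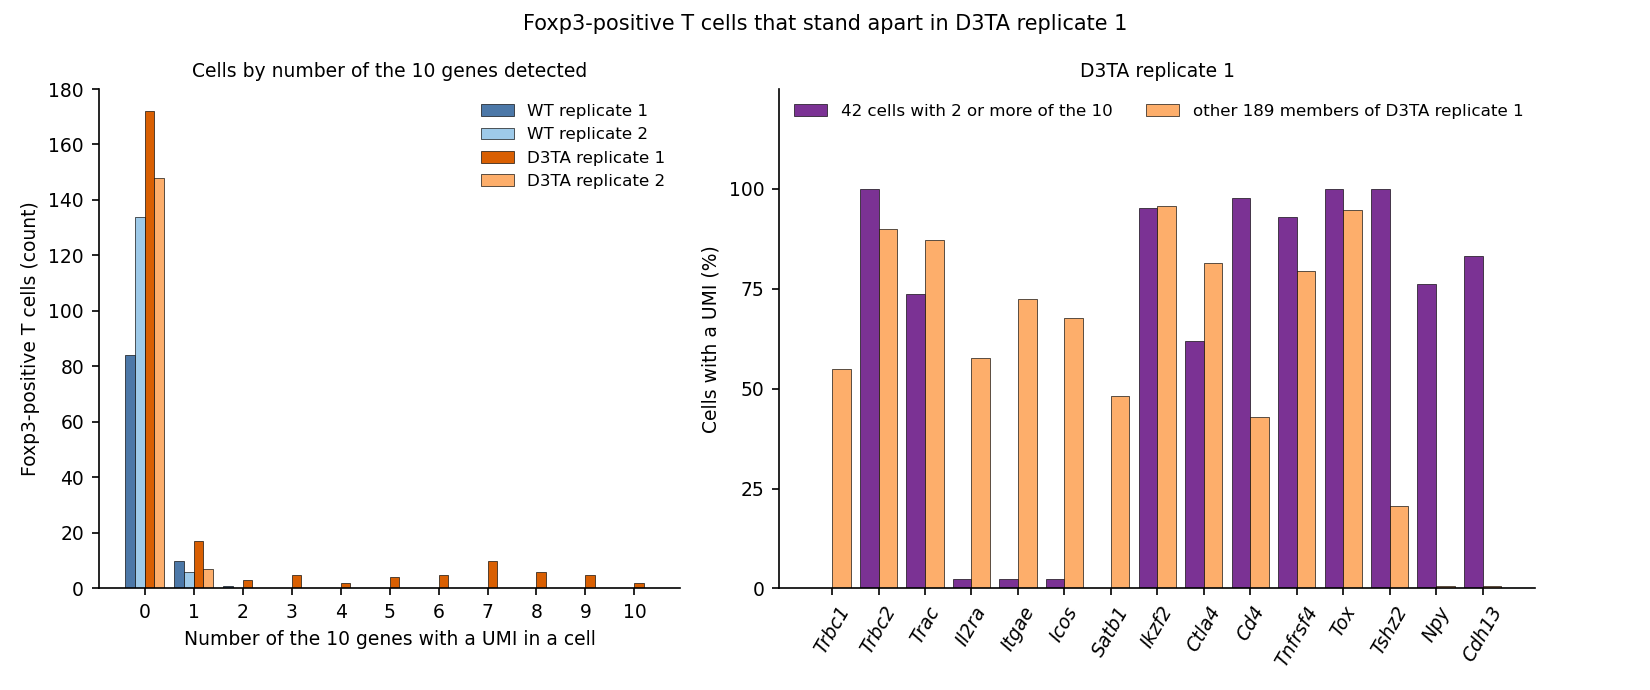
Left, Foxp3-positive T cells of each library (count, y axis) by how many of the 10 genes were detected in a cell (x axis); the cells with 2 or more come almost all from D3TA replicate 1. Right, percent of cells with a UMI of each gene in the 42 cells (purple) and in the other 189 cells of D3TA replicate 1 (orange). Trbc1, Il2ra, Itgae and Icos are near 0 in the purple bars, while Tshz2 is high there. Npy and Cdh13 are among the 10 genes that defined the 42 cells, so their high purple bars follow from the selection.

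The first comparison asked how many Foxp3-positive T cells the spleens held. They were 0.42%, 1.78%, 1.85% and 1.42% of kept cells in WT replicate 1, WT replicate 2, D3TA replicate 1 and D3TA replicate 2. The exact 95% binomial intervals were 0.34 to 0.513, 1.5 to 2.09, 1.62 to 2.1 and 1.2 to 1.65. The shallow WT replicate 1 was the low one, and the other 3 libraries lay close together. The means were 1.1% ± 0.96 (SD, n = 2) in WT and 1.63% ± 0.306 (SD, n = 2) in D3TA, a difference of 0.533 percentage points (two-sided exact permutation test, p = 0.667). With 2 mice against 2 this test cannot go below 0.333. Without WT replicate 1 the difference was -0.146 percentage points.

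Among T cells with no Cd8 UMI, which leaves the depth of other cell types aside, the Foxp3-positive share was 8.05% (6.56 to 9.75), 16% (13.6 to 18.6), 9.75% (8.58 to 11) and 12.9% (11 to 14.9) in the same order. Both genotypes held 1 lower and 1 higher library, with means of 12% ± 5.63 in WT and 11.3% ± 2.21 in D3TA (SD, n = 2 each, exact permutation p = 1). A Foxp3 UMI was found in 0.254% to 0.427% of B cells, a background well below these shares. T cells of WT replicate 1 had a median of 1732 UMIs against 5911.5 to 7545 elsewhere. Over cells with at least 2000 UMIs, an alternative chosen after the data were seen, the share was 15.2% and 16.4% in WT and 10.4% and 13.1% in D3TA. When each cell was thinned to 2000 UMIs, it was 6.06% and 9.47% in WT and 5.87% and 6.03% in D3TA, over T cells in which no Cd8 UMI was drawn. Both WT values lay above both D3TA values in these 2 readings, at the smallest exact permutation p of 0.333. Thinned to 2000 UMIs, WT replicate 1 at 6.06% (4.42 to 8.07) and D3TA replicate 2 at 6.03% (4.84 to 7.41) were nearly equal, the second interval lying inside the first. Thinned to 1000 UMIs the genotypes overlapped, at 2.52% and 3.55% in WT and 2.71% and 2.28% in D3TA (exact permutation p = 0.667). A stricter cell filter (1000 UMIs, 500 genes, 5% mitochondrial) also gave overlap, at 13% and 17.5% against 10.4% and 14%. With the 42 cells and all other T cells of the same mark left out, D3TA replicate 1 was at 8.3% (189 of 2278, 7.2 to 9.51), the lower side of the WT range.

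**Figure D2:**
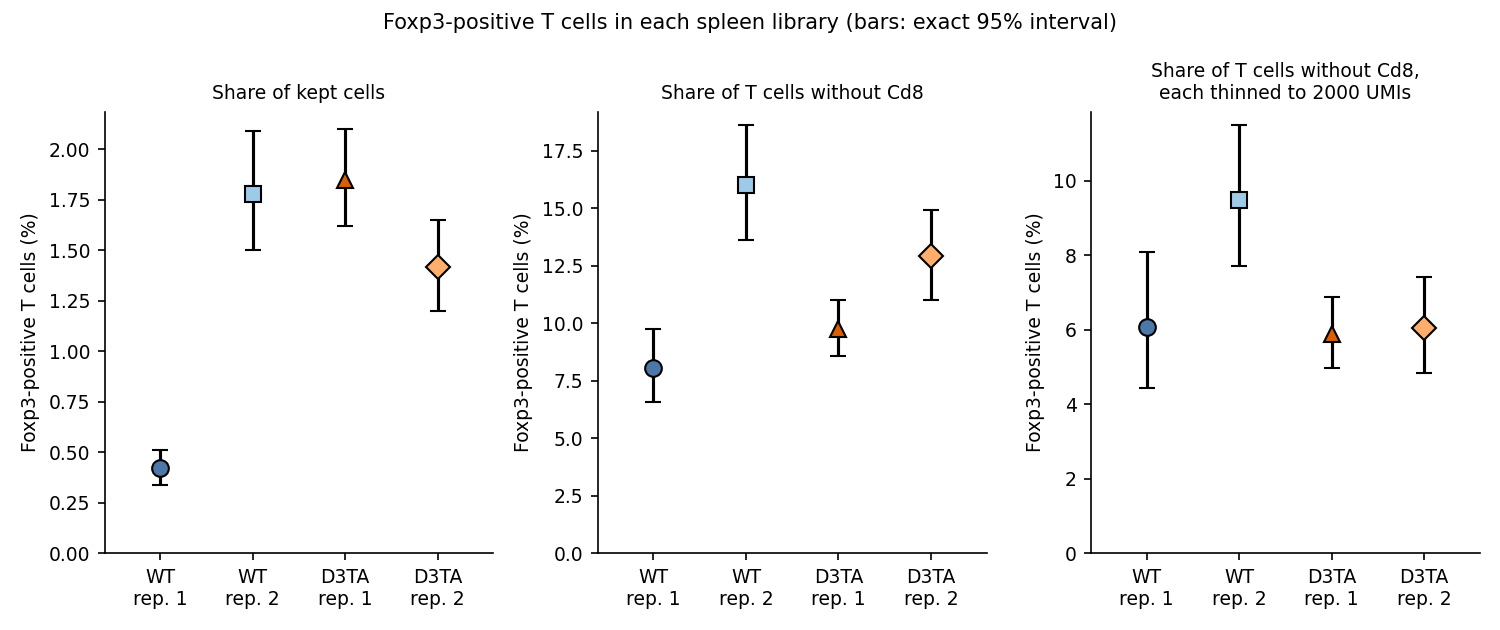
Percent of Foxp3-positive T cells (y axis) in each of the 4 libraries (x axis), over all kept cells, over T cells without Cd8, and over T cells each thinned to 2000 UMIs; bars are exact 95% binomial intervals, which cover counting error only. WT replicate 1 is the lowest over all kept cells and over T cells without Cd8, and WT replicate 2 is the highest over T cells, thinned or not.

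The second comparison set Foxp3-positive T cells against the Foxp3-negative Cd4 T cells of the same mouse (a Cd4 UMI, no Foxp3 UMI, the other filters unchanged; 302, 483, 1316 and 576 cells). The test was edgeR's quasi-likelihood fit on the summed UMIs of each class in each mouse, with the library as a block, and a gene was called at an adjusted p under 0.05. Of 10973 genes tested, 511 were higher (4.66%) and 336 lower (3.06%) in Foxp3-positive T cells. The genes of the rule were not counted, and since Foxp3 is read in few molecules, some cells that express it lie in the comparator. Leaving out a library changed the number of calls from 847 to 464 without WT replicate 1, 421 without WT replicate 2, 1322 without D3TA replicate 1 and 342 without D3TA replicate 2. Without the cells that stood apart 872 were called. With Gzmk cells left out of the comparator, an alternative chosen after the data were seen, 1062 were called, 568 higher and 494 lower.

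Genes of the Foxp3 program rose together. Of the 28 listed and tested, 21 were higher and 0 lower, with a median log2 fold change of 1.51, where the median of all genes tested was -0.01. The list was higher in Foxp3-positive T cells for 27, 27, 25 and 28 of 28 genes in WT replicate 1, WT replicate 2, D3TA replicate 1 and D3TA replicate 2. This is the set of genes usually used to tell regulatory from conventional T cells. The list was chosen with earlier results of these libraries known, so its direction is no independent evidence.

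Il2ra, on chromosome 2 (GRCm38, 11642807 to 11693193, plus strand), was at 168, 233, 217 and 297 CPM in Foxp3-positive T cells of WT replicate 1, WT replicate 2, D3TA replicate 1 and D3TA replicate 2, and at 16, 24.2, 8.87 and 29.4 CPM in Foxp3-negative ones. Without the cells that stood apart D3TA replicate 1 was at 300 CPM, the highest of the 4. The 2 classes did not overlap (log2 fold change 3.61 ± 0.24 SE, edgeR adjusted p = 0.000345). Ikzf2 (chromosome 1, 69531214 to 69687245, minus strand) was at 3793, 4451, 2963 and 5453 CPM against 951, 1280, 1060 and 1430 CPM. Every Foxp3-positive value lay above every Foxp3-negative one (1.75 ± 0.10). Ctla4 was at 358, 397, 519 and 487 CPM against 85.9, 143, 238 and 142 CPM (1.54 ± 0.15). Its D3TA replicate 1 value was 646 CPM without the cells that stood apart.

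Itgae encodes CD103, the integrin chain that binds E-cadherin on epithelium. Its level was 79.2, 106, 309 and 112 CPM in Foxp3-positive T cells, against 7.77, 10.4, 14.9 and 5.65 CPM (3.89 ± 0.21, adjusted p = 0.000216). D3TA replicate 1 was the high library, at 428 CPM without the cells that stood apart. Izumo1r, the folate receptor family member FR4, was at 587, 682, 360 and 561 CPM against 249, 306, 61 and 241 CPM (1.48 ± 0.23). Nrp1, a semaphorin co-receptor, was at 488, 543, 383 and 895 CPM against 289, 385, 120 and 408 CPM (0.96 ± 0.18, adjusted p = 0.0177). Leaving out WT replicate 1 (adjusted p = 0.0595) or D3TA replicate 2 (0.101) ended the call of Nrp1, as did leaving Gzmk cells out of the comparator (0.0783). D3TA replicate 1 was at 477 CPM without the cells that stood apart. Penk, which encodes proenkephalin, was at 36.8, 31.3, 157 and 71.4 CPM against 1.37, 8.24, 46.9 and 8.24 CPM (2.34 ± 0.33), D3TA replicate 1 being the high library in both classes.

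The 7 program genes that were not called were Entpd1, Tigit, Gbp4, Socs2, Plagl1, Rgs1 and Dusp4. Entpd1 encodes CD39, which degrades extracellular ATP. It was at 97.6, 93.1, 91.1 and 116 CPM in Foxp3-positive T cells and at 46.6, 63, 199 and 66.9 CPM in Foxp3-negative ones (0.20 ± 0.33). The comparator of D3TA replicate 1 was the exception to a higher level in the other 3 libraries, and so it was for Tigit, an inhibitory receptor, at 54.7 against 59.4 CPM there. That comparator held Gzmk in 990 of its 1316 cells, against 11 of 302 in WT replicate 1, 29 of 483 in WT replicate 2 and 21 of 576 in D3TA replicate 2.

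**Figure D3:**
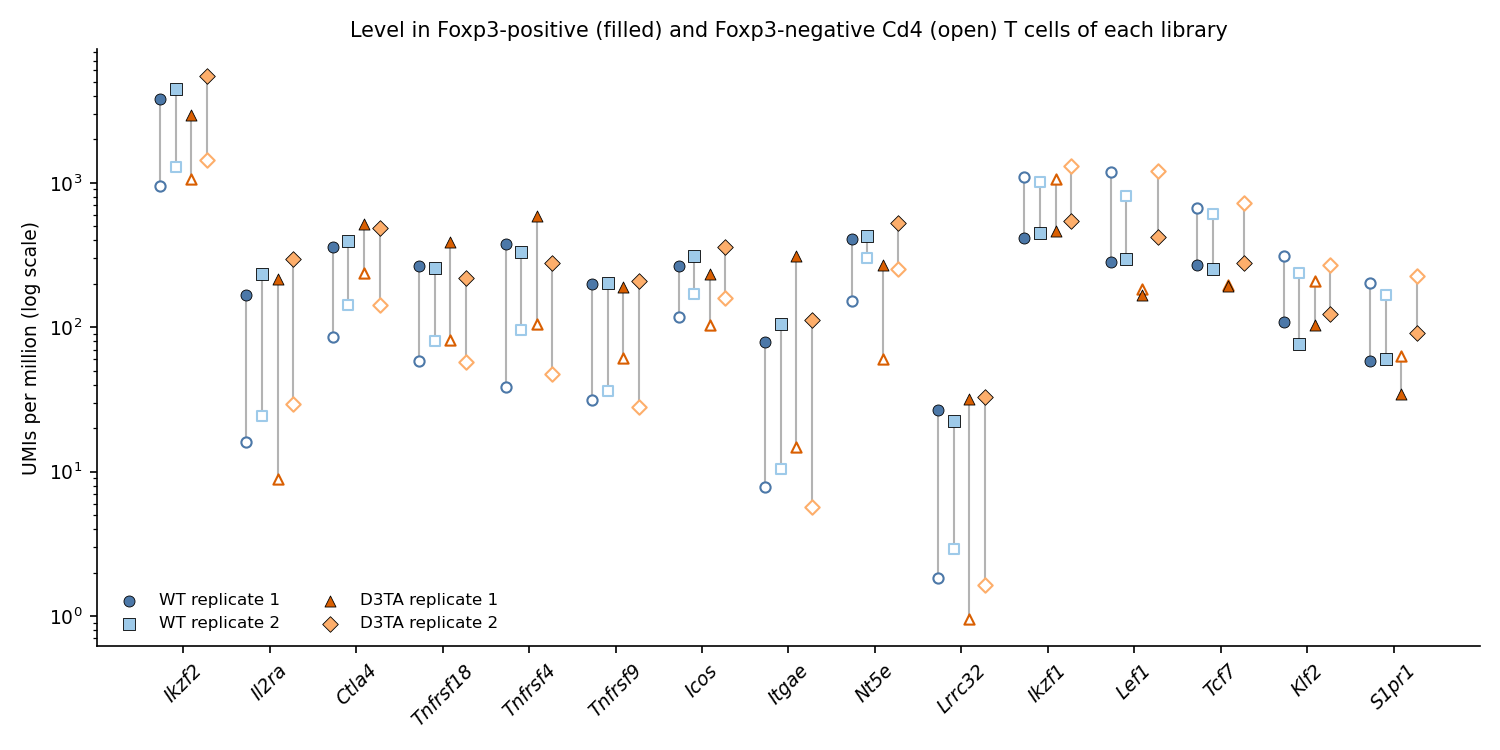
Level in CPM (y axis, log scale) of 15 genes (x axis) in Foxp3-positive (filled) and Foxp3-negative Cd4 (open) T cells, 1 pair of points per library joined by a grey line. From Ikzf2 to Lrrc32 every filled point lies above its open one, and for Ikzf1, Lef1, Tcf7, Klf2 and S1pr1 every filled point lies below, by little in D3TA replicate 1 for Lef1 and Tcf7. The filled points include the cells that stood apart, without which Lef1 of D3TA replicate 1 would lie above its open point.

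TNF receptor family members carry costimulatory signals that expand regulatory T cells. Of 13 genes of this family and of costimulation, 5 were higher, 2 lower and 6 not called (median 0.25). Tnfrsf4 (OX40) was at 379, 330, 585 and 278 CPM against 38.4, 95.2, 106 and 47.6 CPM, with no overlap of the classes (2.44 ± 0.21, adjusted p = 0.000927). Tnfrsf18 (GITR) was at 267, 256, 389 and 219 CPM against 58.5, 80.7, 82 and 57.5 CPM (1.96 ± 0.12). Tnfrsf9 (4-1BB) was nearly level over the libraries at 198, 201, 190 and 208 CPM, against 31.1, 36.1, 61.2 and 28 CPM (2.32 ± 0.20). Tnfrsf1b (TNF receptor 2) was at 235, 240, 214 and 288 CPM against 39.7, 63, 75.8 and 73.7 CPM (1.90 ± 0.16). The fifth was Icos, a relative of Cd28 (1.04 ± 0.09). Cd28 itself, the main costimulatory receptor, fell by 0.63 ± 0.15 on the log2 scale (adjusted p = 0.0399), from 313, 275, 392 and 365 CPM in Foxp3-negative to 199, 189, 192 and 345 CPM in Foxp3-positive T cells. No result with a library left out is given for the call of Cd28.

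The promoters of called TNF receptor genes that hold a STAT motif are shown, since STAT5 acts downstream of IL-2 in these cells. The genes searched were chosen because they were called higher. RefSeq windows of 250 bases before the start (GRCm38.p6) matched 16 of the 24 genes of the Foxp3 program and IL-2 lists that were called higher. The STAT motif TTCNNNGAA, which reads the same on both strands, occurred in 3 of these 16 (18.8%) and in 8.13% of 27025 genes with a promoter in the table, a gene with several RefSeq starts counting once. By window it was 3 of 18 (16.7%) against 7.02%. The forkhead motif TGTTTAC, on either strand, occurred in 2 of the 16 (12.5%) and in 3.54% of all. A match describes the letters in this window and no binding was measured. The 3 promoters with the STAT motif were those of TNF receptor genes on chromosome 4, printed 5′ to 3′ on the gene's strand with the motif in capitals, 181, 136 and 99 bases before the start. The Tnfrsf9 window precedes the downstream one of its 2 RefSeq starts and lies inside the gene as GENCODE draws it (150914562 to 150946102). The Tnfrsf18 window overlaps the start of the gene as GENCODE draws it (156026164 to 156028895), and its motif lies inside that gene.
Tnfrsf1b, chr4:145246871-145247120, minus strand: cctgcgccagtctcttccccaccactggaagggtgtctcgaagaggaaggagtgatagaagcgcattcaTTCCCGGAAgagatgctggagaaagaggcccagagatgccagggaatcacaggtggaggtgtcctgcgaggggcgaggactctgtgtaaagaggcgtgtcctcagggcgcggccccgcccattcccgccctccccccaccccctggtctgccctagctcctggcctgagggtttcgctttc
Tnfrsf9, chr4:150927749-150927998, plus strand: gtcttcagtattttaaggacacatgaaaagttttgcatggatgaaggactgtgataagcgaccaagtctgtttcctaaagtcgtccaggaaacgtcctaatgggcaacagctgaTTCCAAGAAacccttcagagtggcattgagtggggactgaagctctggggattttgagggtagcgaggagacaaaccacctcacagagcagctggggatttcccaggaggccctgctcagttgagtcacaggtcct
Tnfrsf18, chr4:156026072-156026321, plus strand: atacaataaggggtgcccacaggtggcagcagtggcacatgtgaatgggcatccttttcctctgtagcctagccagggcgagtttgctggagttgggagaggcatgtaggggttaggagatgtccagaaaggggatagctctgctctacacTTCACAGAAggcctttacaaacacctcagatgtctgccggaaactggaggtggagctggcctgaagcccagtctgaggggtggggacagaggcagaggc

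Of 16 genes of IL-2 reception and STAT5 signalling, 5 were higher, 1 lower and 10 not called (median 0.29). The higher ones were the receptor chains Il2ra and Il2rb, the feedback inhibitors Cish and Socs1, which STAT5 induces, and the kinase gene Pim1. The call of Il2rb ended without WT replicate 1 (adjusted p = 0.0874), WT replicate 2 (0.0688) or D3TA replicate 2 (0.0899). Cish was at 36.8, 48.3, 96.2 and 60.8 CPM against 13.2, 11.6, 9.5 and 14.6 CPM (2.31 ± 0.29, adjusted p = 0.00393). Pim1 was at 192, 265, 346 and 278 CPM against 80.9, 85.5, 117 and 108 CPM (1.41 ± 0.10). The common gamma chain Il2rg and Stat5b were not called, at 0.27 ± 0.11 and 0.15 ± 0.12. The lower gene was Bcl2, an inhibitor of apoptosis, at 522, 344, 342 and 426 CPM against 754, 720, 420 and 620 CPM (-0.66 ± 0.13, adjusted p = 0.019). The call of Bcl2 was lost without WT replicate 1 (adjusted p = 0.0795), WT replicate 2 (0.0714) or D3TA replicate 2 (0.0946).

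Foxp3 works in complexes with other transcription factors, and these did not move as a group: of 24, 6 were higher, 5 lower and 13 not called (median 0.00). Ikzf4 (Eos), a co-repressor bound by Foxp3, was at 66.5, 116, 94.5 and 137 CPM against 22.4, 13.8, 12.9 and 24.5 CPM (2.51 ± 0.23, adjusted p = 0.00131), with 122 CPM in D3TA replicate 1 without the cells that stood apart. Its family member Ikzf1 (Ikaros) went the other way, at 413, 449, 466 and 543 CPM against 1094, 1018, 1070 and 1297 CPM (-1.31 ± 0.09). Both changes were of one direction in all 4 mice. Rel, the NF-kappaB subunit needed to switch on Foxp3 in the thymus, was at 165, 175, 155 and 189 CPM against 93.6, 93, 97.5 and 127 CPM (0.68 ± 0.10). Gata3, the type 2 helper factor that effector regulatory T cells also use, was at 136, 142, 147 and 225 CPM against 97.3, 78.5, 51.8 and 114 CPM (0.93 ± 0.16). Runx1, Nfatc2 and Stat5b, partners or inducers of Foxp3, were not called.

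Genes of resting and naive T cells were lower in Foxp3-positive T cells. Of 18, 0 were higher, 11 lower and 7 not called, with a median of -1.06. Lef1, a Wnt pathway factor of naive T cells, was at 284, 295, 167 and 419 CPM against 1188, 816, 184 and 1198 CPM (-1.36 ± 0.28, adjusted p = 0.024). Its relative Tcf7 was at 271, 252, 194 and 278 CPM against 669, 612, 197 and 730 CPM (-1.06 ± 0.23). In both genes the classes nearly met in D3TA replicate 1, where the comparator was low. Without the cells that stood apart its Foxp3-positive T cells were at 221 CPM of Lef1 and 106 CPM of Tcf7. Lef1 then lay above the 184 CPM of the comparator, which kept its own cells of that mark, so its decrease in this library rested on those cells. Klf2, which drives S1pr1, was at 109, 77, 103 and 124 CPM against 310, 236, 209 and 271 CPM, lower in each library (-1.35 ± 0.13, adjusted p = 0.00134). S1pr1, the receptor for exit from lymphoid tissue, fell by 1.40 ± 0.15 on the log2 scale. Per library, the list was higher in Foxp3-positive T cells for 0, 2, 7 and 1 of 18 genes.

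The rule asks for 1 Foxp3 UMI, so the cells on each side of that threshold were set side by side, with no test. Il2ra averaged 19.6 CPM ± 9.04 (SD, n = 4 libraries) in Cd4 T cells with 0 Foxp3 UMIs, and 154 ± 32.8, 195 ± 101 and 308 ± 71.7 CPM in Foxp3-positive T cells with 1, 2 and 3 or more. Ikzf2 averaged 1180 ± 216 CPM below the threshold and 3988 ± 1518, 4265 ± 1011 and 4210 ± 821 CPM above it. Cells with a single Foxp3 UMI were thus close to those with more in Ikzf2, and between in Il2ra. Ctla4 was at 152 ± 63.1 CPM below the threshold and 427 ± 112, 452 ± 67.4 and 441 ± 62 CPM above it.

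Of 18 genes for suppression that were tested, 8 were higher, 1 lower and 9 not called (median 0.59). Lrrc32 encodes GARP, which holds latent TGF-beta on the cell surface, and had the largest fold change of the 12 genes named as higher, at 26.9, 22.4, 31.9 and 32.8 CPM against 1.83, 2.91, 0.95 and 1.65 CPM (4.00 ± 0.38, adjusted p = 0.00141). Itgb8, the integrin chain that frees TGF-beta from its latent form, was also higher, at 226, 296, 299 and 270 CPM against 56.6, 179, 58.1 and 135 CPM (1.45 ± 0.27). Nt5e (CD73), which turns AMP into adenosine, was at 406, 428, 271 and 523 CPM against 152, 300, 60.5 and 251 CPM (1.23 ± 0.24). Tgfb1 itself was not called, at 0.35 ± 0.13. Ebi3, a chain of the cytokine IL-35, was at 17, 22.4, 24.5 and 20.3 CPM against 3.2, 4.12, 5.7 and 3.77 CPM (2.26 ± 0.24), and its partner Il12a was too low to be tested. Il10, the suppressive cytokine, was at 4.24, 22.4, 4.55 and 5.79 CPM and was not called (0.23 ± 0.87).

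Of 31 genes of effector regulatory T cells, 9 were higher, 3 lower and 19 not called (median 0.28). Klrg1, an inhibitory receptor of late effector cells, was at 50.9, 21.5, 18.2 and 28 CPM against 0.457, 0.485, 4.54 and 2.12 CPM (3.62 ± 0.60, adjusted p = 0.0106). It was read in 9.47%, 10.7%, 9.09% and 7.74% of Foxp3-positive T cells, a like minority in each mouse, and in up to 0.248% of B cells. The call of Klrg1 was lost without D3TA replicate 2 (adjusted p = 0.0632). Batf, an AP-1 partner that effector regulatory T cells need, was at 252, 307, 319 and 253 CPM against 69.9, 112, 221 and 119 CPM (1.14 ± 0.19). Il1rl1 (ST2), the receptor of IL-33, was at 24, 17.9, 29 and 42.5 CPM against 0, 1.94, 3.17 and 5.42 CPM (3.33 ± 0.43). Ccr8, a chemokine receptor of tissue regulatory T cells, was at 11.3, 7.16, 23.3 and 26.1 CPM against 1.37, 2.18, 2.96 and 0.706 CPM (3.10 ± 0.50), D3TA replicate 1 being at 15 CPM without the cells that stood apart. The lower genes included Cxcr6 and Id2, which are also high in cytotoxic and memory T cells.

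Among 14 regulators of helper type, 5 were higher and 0 lower (median 0.36): Gata3, Il1rl1, Ahr, Ccr6 and Ccr4. The call of Ahr ended without WT replicate 2 (adjusted p = 0.0584). Ccr6, the receptor of the chemokine Ccl20, was at 26.9, 26.9, 48.4 and 38.6 CPM against 5.48, 1.45, 5.17 and 7.77 CPM (2.88 ± 0.32). The factors Tbx21 and Bcl6 of type 1 and follicular helper cells were not called. Of 20 chemokine receptors and adhesion molecules, 4 were higher, 6 lower and 10 not called (median -0.26), the lower ones including Itga4 and Itgb1, the chains of the integrin VLA-4, at -0.68 ± 0.13 and -0.70 ± 0.16.

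Few genes of the cell cycle and signalling lists were called. Of 18 G1 cyclins, kinases and inhibitors tested, Cdk6 was higher, Cdkn2d lower and 16 were not called (median -0.09). Both calls ended without WT replicate 1 (adjusted p = 0.128 and 0.106), WT replicate 2 (0.102 and 0.155) or D3TA replicate 2 (0.135 and 0.171). They also ended with Gzmk cells left out of the comparator (edgeR adjusted p = 0.0509 and 0.0772). Ccnd3, the gene altered in D3TA mice, was at 1186, 969, 627 and 1177 CPM in Foxp3-positive T cells and at 1183, 1069, 600 and 1185 CPM in Foxp3-negative ones (-0.08 ± 0.08, adjusted p = 0.668). D3TA replicate 1 was the low library in both classes, at 754 CPM without the cells that stood apart. Ccnd2 was at 232, 249, 276 and 241 CPM against 328, 333, 95.5 and 295 CPM (0.02 ± 0.32), and without D3TA replicate 1 it was lower, at -0.47 (adjusted p = 0.00658). Ccnd1 was at 0, 0, 1.14 and 1.93 CPM, at or near the level of single UMIs. Of 20 proliferation genes 0 were called in either direction by edgeR, 4 at an unadjusted p under 0.05, with a median of 0.23. By library the list was uneven, with 19, 13, 10 and 11 of 20 genes higher and medians of 1.15, 0.24, -0.02 and 0.05, WT replicate 1 being the high one. Mki67 was at 50.9, 69.8, 133 and 51.1 CPM against 47.5, 39, 137 and 45.7 CPM.

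Of 17 T cell receptor signalling genes, 1 was higher, 1 lower and 15 not called (median 0.01). The lower one was Cd247, the zeta chain of the receptor complex, at 690, 587, 634 and 810 CPM against 899, 1120, 934 and 1205 CPM (-0.67 ± 0.10, adjusted p = 0.00763), a call that was lost without D3TA replicate 2 (adjusted p = 0.0529). The higher one, Nr4a1, an early gene of receptor signalling, was called at 0.89 ± 0.20 with all libraries and was lost without any 1 of them (adjusted p = 0.119, 0.133, 0.0565 and 0.063). Of 19 interferon response genes 5 were higher and 0 lower (median 0.30), led by Ifi27l2a at 1041, 979, 1247 and 826 CPM against 619, 632, 588 and 401 CPM (0.82 ± 0.10, adjusted p = 0.00357). Others were Gbp7, Igtp and Isg20. The call of Gbp7 ended without WT replicate 1 (adjusted p = 0.0957), WT replicate 2 (0.0958) or D3TA replicate 2 (0.108), and that of Isg20 without WT replicate 2 (0.064). Of 15 glycolysis genes 1 was called, Slc16a3, higher (median 0.24), and of 20 AP-1 and heat shock genes Dusp1 was higher and Ier3 lower (median 0.02). These 3 calls ended without D3TA replicate 2 (adjusted p = 0.0625, 0.104 and 0.0646), that of Slc16a3 also without WT replicate 2 (0.0501), and that of Dusp1 without either WT library (0.0977 and 0.113). The call of Ier3 also ended with Gzmk cells left out of the comparator (edgeR adjusted p = 0.957). Of 14 apoptosis regulators 3 were higher, Bcl2l1, Birc3 and Bcl2a1b, and 1, Bcl2, was lower (median 0.27). The call of Birc3 ended without WT replicate 1 (adjusted p = 0.0701), WT replicate 2 (0.113) or D3TA replicate 2 (0.0834), and that of Bcl2l1 without WT replicate 1 (0.111) or D3TA replicate 2 (0.174).

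**Figure D4:**
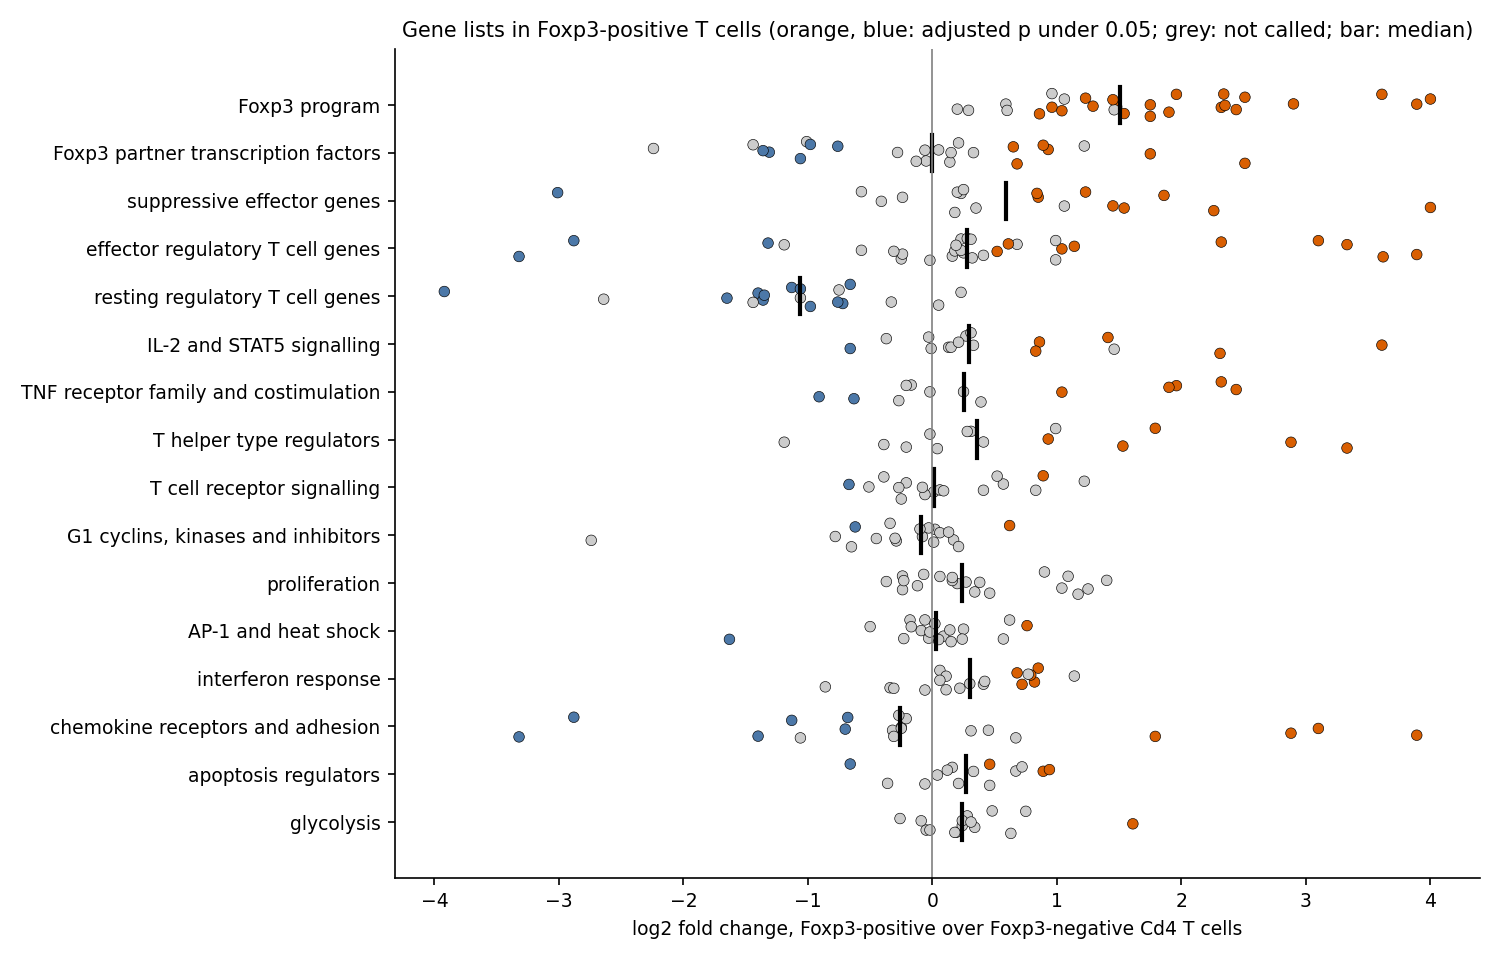
Log2 fold change of each listed gene (x axis) between Foxp3-positive and Foxp3-negative Cd4 T cells, by gene list (rows); orange and blue points were called higher and lower at an adjusted p under 0.05, grey points were not, and black bars are list medians. The Foxp3 program lies to the right with a median of 1.51 and the resting list to the left with a median of -1.06.

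The remaining genes with the largest increases were Vegfc, Frmd5, Cep112, Muc16, Gpr83 and Tnfrsf8, named by size from 378 genes that also rose in all 4 mice and reached 20 CPM. Of all genes tested, called or not, 17.5% were higher in all 4 mice. Cep112, a centrosomal protein gene, was at 164, 378, 229 and 308 CPM against 10.5, 42.9, 15.8 and 23.5 CPM (3.57 ± 0.15, adjusted p = 0.000144). WT replicate 1 was the low library in both classes. Gpr83, a G protein-coupled receptor gene known as a regulatory T cell marker, was at 55.1, 22.4, 7.4 and 31.8 CPM against 4.57, 5.09, 0.317 and 5.42 CPM (2.90 ± 0.38), D3TA replicate 1 being low in both classes. Vegfc, a lymphatic growth factor gene, was uneven at 19.8, 4.48, 63.8 and 4.82 CPM, and the D3TA replicate 1 value was 13.4 CPM without the cells that stood apart.

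The largest decreases were in Fbn2, Ralyl, Esm1, Il21, Xcl1, Gzmk, Zbtb16, Eomes, Pde3b, Dapl1, Tnc and Ccl4. Several of these are products of helper and cytotoxic T cells. Il21, the cytokine of follicular helper T cells, was at 4.24, 0, 0.569 and 0.965 CPM against 27.4, 62.8, 14.6 and 45.9 CPM (-4.97 ± 0.51, adjusted p = 0.00188). Fbn2, a fibrillin gene, had 0 UMIs in all Foxp3-positive T cells and 615 in Foxp3-negative ones, at least 47.2-fold lower when the floor of 3 counts over the group is used. Gzmk, a granzyme, was at 0, 0.895, 26.8 and 0 CPM against 11, 14.5, 558 and 14.8 CPM (-4.48 ± 0.24), so D3TA replicate 1 was far above the rest in both classes. Zbtb16, the factor PLZF of innate-like T cells, was at 4.24, 0.895, 0.569 and 0.965 CPM against 71.3, 46, 2.74 and 9.18 CPM (-4.24 ± 0.40). Pde3b, a phosphodiesterase, was at 45.2, 15.2, 12 and 7.72 CPM against 356, 228, 166 and 382 CPM (-3.98 ± 0.31).

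The third comparison, between genotypes within Foxp3-positive T cells, found few differences. Of 9010 genes tested by edgeR on the 4 sums, 17 were higher in D3TA (0.189%) and 1 lower (0.0111%), and 339 had an unadjusted p under 0.05. In this small design simulated counts gave back 78.4% of 4-fold and 12.2% of 2-fold changes, so smaller shifts would mostly be missed. Of the 95 calls in that simulation 7.37% were false. The number of calls rested on the libraries: it was 27 without WT replicate 1, 16 without WT replicate 2, 347 without D3TA replicate 1 and 803 without D3TA replicate 2, where the lone sample is assumed to vary like the other group. Without the cells that stood apart it was 19.

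The 18 were sorted by a cut for possible free RNA, a level under 1 part in 5 of that in the other kept barcodes. In D3TA Foxp3-positive T cells 13 fell under this cut, at 3.59% to 19.7%, so the upper bound follows from the sorting. These 13 were genes of neutrophils and other myeloid cells, such as S100a8, S100a9, Lcn2, Chil3, Lyz2 and Mpo. S100a8, a calprotectin subunit of neutrophils, was at 33.9 and 14.3 CPM in WT and 1992 and 1047 CPM in D3TA (log2 fold change 6.04 ± 0.55, adjusted p = 0.00234). Chil3 had 0 UMIs in WT Foxp3-positive T cells and 134 and 92.6 CPM in D3TA, at least 72.1-fold higher with the floor of 3 counts over the group. The sum of 8 neutrophil markers, 3 of which the rule limits, was 79.2 and 56.4 CPM in WT and 5847 and 2862 CPM in D3TA Foxp3-positive T cells, beside 2168 and 2704 CPM and 137981 and 79030 CPM in the other barcodes. Without those 3 it was 73.5 and 45.7 CPM in WT and 5101 and 2211 CPM in D3TA. Foxp3-negative Cd4 T cells held 132 and 136 CPM of the 8 markers in WT and 7284 and 3177 CPM in D3TA, so the rise was not particular to the members. The part of free RNA in these calls was not tested.

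The other 5 calls were the stress and immediate early genes Hspa1a, Hspa1b, Fos and Fosb, higher in D3TA, and Adgrv1, lower. Hspa1a, a heat shock protein 70 gene, was at 2.83 and 4.48 CPM in WT and 49 and 64.6 CPM in D3TA (3.83 ± 0.43, adjusted p = 0.0067). Its near-identical neighbour Hspa1b was at 5.66 and 16.1 CPM against 98.5 and 176 CPM (3.50 ± 0.45), and reads of the pair may be split between them. Fos, an AP-1 subunit, was at 4.24 and 12.5 CPM against 93.9 and 95.5 CPM (3.36 ± 0.41, adjusted p = 0.00929). Its call ended when at least 2 Foxp3 UMIs were asked (adjusted p = 0.0606). The D3TA libraries lay above the WT libraries in these genes without overlap, as 27.3% of all genes tested did in one direction or the other. The same genes were higher in the other barcodes of the D3TA libraries, Hspa1a at 28.8 and 31.6 CPM against 3.33 and 4.44 CPM and Fos at 147 and 129 CPM against 24.6 and 21.5 CPM. In Foxp3-negative Cd4 T cells Hspa1a was at 34.9 and 57.2 CPM in D3TA against 3.2 and 6.78 CPM in WT.

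Fosb was at 2.83 and 0.895 CPM against 27.3 and 33.8 CPM (4.09 ± 0.60, adjusted p = 0.0288), a call that was lost without WT replicate 2 (adjusted p = 0.127) and with at least 2 Foxp3 UMIs (0.164). Adgrv1, an adhesion receptor gene, was at 22.6 and 20.6 CPM in WT and 0.569 and 0 CPM in D3TA (-5.55 ± 0.81, adjusted p = 0.0288). It was lost without WT replicate 1 (adjusted p = 0.427) and without WT replicate 2 (adjusted p = 0.468). Of the 16 gene lists, heat shock and AP-1 genes were the one with calls, 4 of 19 tested, with a median of 0.50 where all genes tested had 0.01. Of the 27 Foxp3 program genes tested 0 were called by edgeR and 4 had an unadjusted p under 0.05, with a median of 0.22. Effector regulatory T cell genes had a median of 0.35, with 0 of 27 called and 7 at an unadjusted edgeR p under 0.05. T cell receptor signalling genes had the lowest median, -0.25, with 0 of 17 called and 3 at an unadjusted edgeR p under 0.05. Foxp3 itself, which the rule used, was at 328 and 347 CPM in WT and 313 and 363 CPM in D3TA, Ikzf2 differed by -0.00 ± 0.35 and Il2ra by 0.33 ± 0.28. These values include the cells that stood apart, without which D3TA replicate 1 was higher in Ikzf2 (3683 CPM) and Il2ra (300 CPM). Ccnd3 differed by -0.29 ± 0.34 (adjusted p = 1). Lgals3, which encodes galectin-3, came closest among the effector genes, at 1.41 and 8.95 CPM in WT and 81.4 and 47.3 CPM in D3TA (3.46 ± 0.57, adjusted p = 0.0619), with 345 and 140 CPM in other D3TA barcodes.

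**Figure D5:**
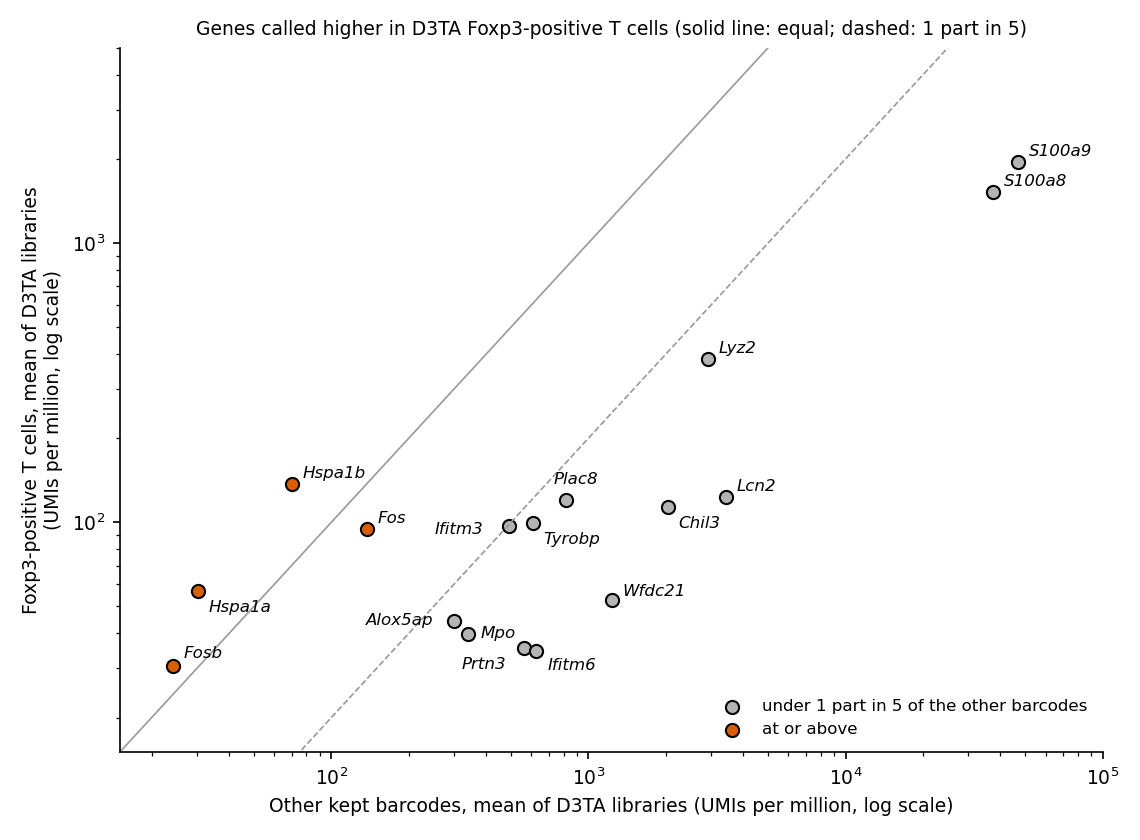
Mean level of the 17 genes called higher in D3TA Foxp3-positive T cells (y axis, CPM, log scale) against their mean level in the other kept barcodes of the D3TA libraries (x axis, same unit, log scale). The 13 grey points lie under the dashed line of 1 part in 5 because that line is the cut that sorted them. Hspa1a, Hspa1b and Fosb lie above the line of equal levels.

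Whether the difference between the 2 T cell classes depended on genotype was tested as an interaction over the same 8 sums. Of 10973 genes 0 were called by edgeR (0%), 494 had an unadjusted p under 0.05, and DESeq2 called 1, the globin gene Hbb-bt. The number was 15 without D3TA replicate 1 and 463 without D3TA replicate 2. Simulated counts gave back 63.6% of 4-fold and 1.02% of 2-fold differences in this fit, so 2-fold differences were not detectable. The smallest p belonged to Dclk1, at 0, 0, 180 and 1.93 CPM in Foxp3-positive T cells (interaction 10.28 on the log2 scale, adjusted p = 0.784), and its D3TA replicate 1 value was 0.789 CPM without the cells that stood apart. Of the 16 gene lists, proliferation genes had the lowest median, -0.76 over 20 genes, with 0 called and 7 at an unadjusted p under 0.05. The class difference of this list was 1.15 in WT replicate 1, with 95 Foxp3-positive T cells, and -0.02 to 0.24 in the other libraries. For the Foxp3 program the median interaction was 0.20 over 28 genes, with 0 called and 4 at an unadjusted p under 0.05.

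Markers of other cell types were followed in the same cells. Summed B cell markers were at 307 to 977 CPM in Foxp3-positive T cells, 278 to 475 CPM in Foxp3-negative ones and 5354 to 15204 CPM in the other barcodes. Summed gamma delta T cell markers were at 86.2 CPM in WT replicate 1 and 0.895 to 11.6 CPM in the other libraries. Summed NK cell markers were at 46.7, 14.3, 145 and 95.5 CPM in Foxp3-positive T cells of WT replicate 1, WT replicate 2, D3TA replicate 1 and D3TA replicate 2, and Klra8 among them was at 0. Foxp3-negative Cd4 T cells held 61.7, 94.3, 479 and 60.3 CPM of the NK cell markers in the same order. Of this list 1 of 2 genes tested, Tyrobp, was called higher in D3TA, and it is one of the 13 myeloid genes above. Summed dendritic cell markers were at 83.4, 101, 167 and 122 CPM, with Siglech at 0. Erythroid markers summed to 786 CPM in D3TA replicate 1 and 36.8 to 121 CPM in the other 3 libraries. In Foxp3-negative Cd4 T cells they summed to 1046 and 678 CPM in WT and 957 and 103 CPM in D3TA. The part of these RNAs in the results was not tested.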

How the data were processed

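Droplet single-cell RNA sequencing was done on spleens of 4 mice. The deposited matrices hold raw UMI counts for 32285 genes. Per the file headers the authors ran Cell Ranger 7.0.1, and the build was mm10 per the submitters' processing notes. Library totals were 83507825, 81416981, 143811696 and 114430052 UMIs in the order of the report. Members were selected by the rule in the report, and the members, gene lists and cell markers were chosen with earlier results of these data known. Counts were summed per library and class, genes were filtered with filterByExpr and scaled with TMM, and tests used the quasi-likelihood fit of edgeR 4.0.16 with Benjamini-Hochberg adjustment (R 4.3.3), with the 17 genes of the rule left out of calls. CPM values are UMIs per 1000000 of the summed class. The genotype fit used the 4 sums of Foxp3-positive T cells, the class fit all 8 sums with the library as a block, and the interaction fit the same 8 sums. Each library is 1 mouse, so p-values of the genotype and interaction fits rest on the spread between 2 mice a group. Those of the class fit rest on the spread of the difference within a mouse over the 4 mice of both genotypes.

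Named genes were the 12 with the largest fold change in each direction among genes called, moved the same way in all libraries and at 20 CPM or more, members of the 16 lists, and the genes fixed for checks. Scrublet marked doublets, which were kept. Shares have exact 95% binomial intervals (Clopper-Pearson), which cover counting error only. Alternatives were DESeq2 1.42.0, other scaling and filters, other cell rules and leaving out each library. The fits were tested on simulated counts with 200 changed genes. False calls made up 7.37% of the calls in the genotype fit, 7.89% in the class fit and 11.1% in the interaction fit. Promoters come from RefSeq GRCm38.p6, and gene positions from GENCODE on GRCm38. A few genes of the lists are counted in them but not reported here by name.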

Additional observations from a re-analysis of the deposited data

How the results depend on the processing

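The exact test of the shares cannot pass a threshold of 0.05 in this design, so it says nothing of stability. Leaving out a library gave differences of -0.146 to 1.21 percentage points in the share of kept cells and -4.71 to 3.26 in the share of T cells without Cd8. Counts of calls moved more. With no filter on low counts, 262 genes were called between genotypes, 1580 between classes and 173 in the interaction. DESeq2 called 29 between genotypes and 1 in the interaction. Without genes of possible free RNA 3 were called between genotypes. Leaving out a library gave 16 to 803 calls between genotypes, 342 to 1322 between classes and 0 to 463 in the interaction; the extremes came without WT replicate 2 and D3TA replicate 2 between genotypes, and without D3TA replicate 2 and D3TA replicate 1 between classes. A comparator that asked for no Cd4 UMI gave 1397 calls between classes, and one without Gzmk cells gave 1 in the interaction, an alternative chosen after seeing the data. Ccnd2 changed sign between classes without D3TA replicate 1, to -0.47, in a range of -0.47 to 0.21 over the libraries left out. The cause was not tested for any of these, except that fewer samples entered where a library was left out.

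WT and D3TA libraries share replicate numbers, and same-numbered libraries had a correlation of deviations of 0.0594 over 3838 genes. With 2 mice a group this is a single value, so it cannot tell whether the numbers mark a shared day or litter. With the replicate number as a block 33 genes were called between genotypes. The class fit blocks on the library, which is the mouse, and without that block 268 genes were called between classes. For a set of named genes called between classes, each gene was counted once under each alternative. Of these values 1051 kept the call and 90 lost it, so they are not numbers of genes. The losses were uneven: Nr4a1 kept its call in 9 of 18 alternatives, Cdkn2d in 10 of 18 and Il2ra in 18 of 18. Called genes outside this set, such as Cd28 and Lef1, have no such values here. With 2 mice a group, 2-fold differences between genotypes were mostly below detection.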
